A study of Mus musculus with 12 samples.

Results

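The vessel lining of whole mouse embryos was followed through 10 endothelial genes: *Kdr*, *Flt1*, *Tek*, *Tie1*, *Cdh5*, *Pecam1*, *Emcn*, *Eng*, *Sox17* and *Sox18*. They were chosen by name as genes of the vessel lining, and all 10 were found among the 23420 genes listed in the count tables of both mouse lines. The study sequenced polyadenylated RNA of E12.5 embryos from crosses between heterozygotes, to compare the loss of *Carm1* with the loss of *Pax3*. In the Carm1 line, on C57BL/6, 3 Carm1 null libraries (allele Carm1tm1Mtb, homozygous) were set against 3 wild-type libraries. In the Pax3 line, of mixed strain, 3 Pax3 null libraries (Splotch, allele Pax3Sp2h, homozygous) were set against 3 wild-type libraries. No embryo was treated, both alleles are germline and so present in every cell, and strain, colony and gene cannot be told apart between the lines. *Carm1* encodes an arginine methyltransferase that acts as a transcriptional coactivator, and *Pax3* a transcription factor of neural crest and muscle precursors.

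Endothelial cells line blood vessels, lymphatic vessels and the inside of the heart. They grow in response to vascular endothelial growth factor (VEGF), which binds the receptors encoded by *Kdr* and *Flt1*, and vessels are stabilised and remodelled by angiopoietins, which bind the receptor encoded by *Tek*. Endothelial genes are read under the control of ETS factors, and SOX17 and SOX18, with SOX7, form the SOXF group that acts in arterial and lymphatic identity. In RNA of a whole embryo, fewer endothelial cells and less of an RNA per endothelial cell cannot be told apart.

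In the Carm1 line *Tek* and *Emcn* were called higher in null embryos (adjusted p under 0.05), by 0.28 and 0.33 on the log2 scale. None of the 10 was called lower. Of all genes tested in this line 13.3% were called, 5.49% higher and 7.83% lower. *Sox17* was called higher in Pax3 null embryos, by 0.36 on the log2 scale. In that line 24.5% of all genes tested were called, 14.0% higher and 10.5% lower. None of the 10 was called lower there, although the log2 fold change was negative in 8. When the null against wild-type differences of the lines were tested against each other, 4 of the 10 differed: *Tek*, *Emcn*, *Cdh5* and *Pecam1*, each with a higher value in the Carm1 line, where 19.1% of all genes tested were called and 8.65% were higher. Of these calls only that of *Tek* passed in all 20 alternative settings, and each of the others was lost in 6 or 7. The promoter sequences of *Tek* and *Emcn* are shown first, because these are the genes called in the Carm1 line and in the difference between the lines.

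RefSeq promoter windows of 250 bases before the start site (GRCm38.p6) were matched for 6 of the 10 genes: *Kdr*, *Flt1*, *Tek*, *Tie1*, *Emcn* and *Eng*. The genes without an entry were *Pecam1*, *Cdh5*, *Sox17* and *Sox18*. The windows below are on the forward strand, at chr4:94739039-94739288 for *Tek* and chr3:137340828-137341077 for *Emcn*. Capitals mark the ETS core CAGGAA, which in both windows lies on the reverse strand and is therefore printed as TTCCTG.
Tek: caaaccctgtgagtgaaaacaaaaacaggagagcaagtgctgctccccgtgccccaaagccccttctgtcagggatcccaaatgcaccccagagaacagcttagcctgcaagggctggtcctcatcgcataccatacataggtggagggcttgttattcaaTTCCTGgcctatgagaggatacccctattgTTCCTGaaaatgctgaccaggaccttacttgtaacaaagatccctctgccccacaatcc
Emcn: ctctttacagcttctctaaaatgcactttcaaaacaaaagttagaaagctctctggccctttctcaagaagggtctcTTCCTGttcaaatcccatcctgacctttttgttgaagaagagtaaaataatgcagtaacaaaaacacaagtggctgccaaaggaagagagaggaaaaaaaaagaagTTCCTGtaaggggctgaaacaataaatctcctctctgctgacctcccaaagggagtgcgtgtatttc

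*Tek* held CAGGAA at 89 and 59 bases before the start, and *Emcn* at 173 and 67 bases. *Tie1* held it once, at 209 bases, and *Kdr* held the other ETS core searched, CCGGAA, at 153 bases. Thus 4 of 6 windows held CAGGAA or CCGGAA on either strand, while 35.1% of 32851 promoter windows of the same length did. Other ETS words were not searched, so a window without these may still hold one. The SOX core ACAAAG was found in *Eng* and *Tek*, at 67 and 26 bases, and ACAATG in none of the 6 windows. Either SOX core was present in 25.2% of all windows. A match of these short words describes the letters of the window and is not a binding site.

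The libraries held 17183344 to 23518692 counts, and the count of an endothelial gene in a library was between 147 and 2100. Levels are given as CPM, a gene's count relative to the total of its library, scaled within each line by the trimmed mean of M-values (TMM). The targeted gene *Carm1* was at 72.3 ± 3.55 CPM (SD, n = 3) in Carm1 null embryos, against 144 ± 6.99 CPM (SD, n = 3) in their wild type. *Pax3* was at 20.8 ± 2.40 CPM (SD, n = 3) in Pax3 null embryos, against 28.1 ± 2.99 CPM (SD, n = 3) in theirs. Counts were per gene, so RNA of a mutated transcript is included. The ribosomal transcript *Rn45s*, a trace of unselected RNA, took 3.30 to 6.40% of counts in the Carm1 line, 0.764 to 1.70% in Pax3 wild-type and 0.374 to 0.381% in Pax3 null libraries, and its part in the Pax3 comparison was not tested. Of the 12 libraries, 4 held at least 100 Y-linked counts: Carm1 wild-type replicate 3, Pax3 wild-type replicates 2 and 3, and Pax3 null replicate 3. No Carm1 null library did, so the sexes were not balanced between genotypes in either line.

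The summed level of the 10 genes was 409, 431 and 439 CPM in Carm1 null and 418, 395 and 387 CPM in wild-type libraries. The sum in the Pax3 line was 358, 409 and 364 CPM in null and 411, 402 and 391 CPM in wild-type libraries. The groups overlapped in both lines. Among Carm1 line libraries 1 of each genotype, null replicate 3 and wild-type replicate 1, had both the highest sum of its group and its highest *Rn45s* share. Pax3 null replicate 2 stood above the other null libraries. It and Pax3 wild-type replicate 1 had the highest sum of their groups but the lowest *Rn45s* share. The part of *Rn45s* in these sums was not tested.

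**Figure D1:**
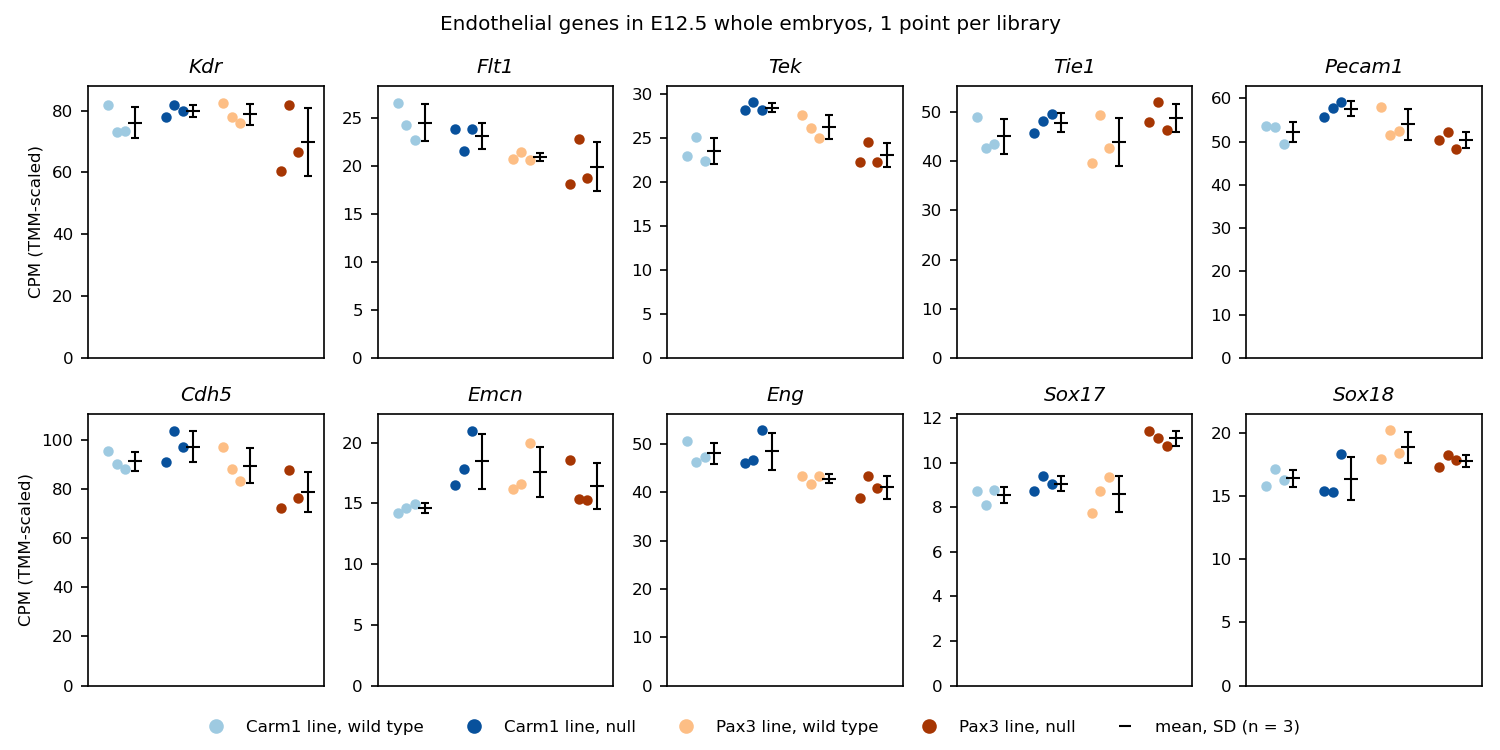
TMM-scaled CPM (vertical axis, from 0) of each of the 10 endothelial genes, with 1 point per library in 4 groups and the mean with SD (n = 3) in black. The Carm1 null libraries lie above their wild-type libraries for *Tek*, *Pecam1* and *Emcn*, and the Pax3 null libraries lie above theirs for *Sox17* and below them for *Tek*.

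Per kilobase of exon (the union of all exons of a gene in the GENCODE annotation of GRCm38), *Cdh5* had the highest level of the 10 in all 4 groups, with means of 18.7 to 23.1 CPM per kilobase. *Eng* and *Sox18* followed at 10.1 to 11.98 CPM per kilobase. *Tie1*, *Kdr* and *Pecam1* came next at 7.72 to 9.93 CPM per kilobase. Over the libraries of each group these neighbours overlapped, except *Tie1* above *Pecam1* in Pax3 null embryos, and *Eng* and *Sox18* overlapped only in Pax3 null embryos. *Tie1* also overlapped the gene above it, *Sox18* in both Carm1 line groups and *Eng* in Pax3 null embryos. *Tek* lay at 4.89 to 6.04 and *Emcn* at 2.70 to 3.41 CPM per kilobase, and neither overlapped its neighbours in any group. *Sox17* and *Flt1* were lowest, at 1.47 to 2.33 CPM per kilobase, and overlapped in Carm1 wild-type embryos only. The value of *Flt1* rests on an exon union of 13.504 kilobases, which includes every annotated transcript.

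In the Carm1 line 2 of the 10 genes passed edgeR's quasi-likelihood test at a Benjamini-Hochberg adjusted p of 0.05, both higher, where 13.3% of 15811 genes tested were called in either direction, 5.49% higher and 7.83% lower. The log2 fold change (null over wild type) was positive in 8 of 10, with a median of 0.090, while the median over all genes tested was 0.0014. The groups did not overlap for 3 of 10 genes, against 30.0% of all genes tested. Of the 10 genes 1 passed the same test in the Pax3 line, where 24.5% of 15724 genes tested were called in either direction, 14.0% higher and 10.5% lower. There the log2 fold change was negative in 8 of 10, with a median of -0.092, while that over all genes was -0.0026. The groups did not overlap for 2 of 10, against 39.6% of all genes. At an unadjusted p under 0.05 in the same edgeR test, 3 were higher and 0 lower in Carm1 null embryos, and 1 higher and 2 lower (*Tek* and *Cdh5*) in Pax3 null embryos. DESeq2 called 0 of the 10 lower in either line. With 10 genes, counts of 2 and 1 lie near or under the shares called in either direction, 13.3% and 24.5%. Both Carm1 line calls were higher, and the count of 2 is above the 5.49% called higher there. For any 1 gene, 3 libraries against 3 allow an exact permutation p of 0.1 at the lowest.

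**Figure D2:**
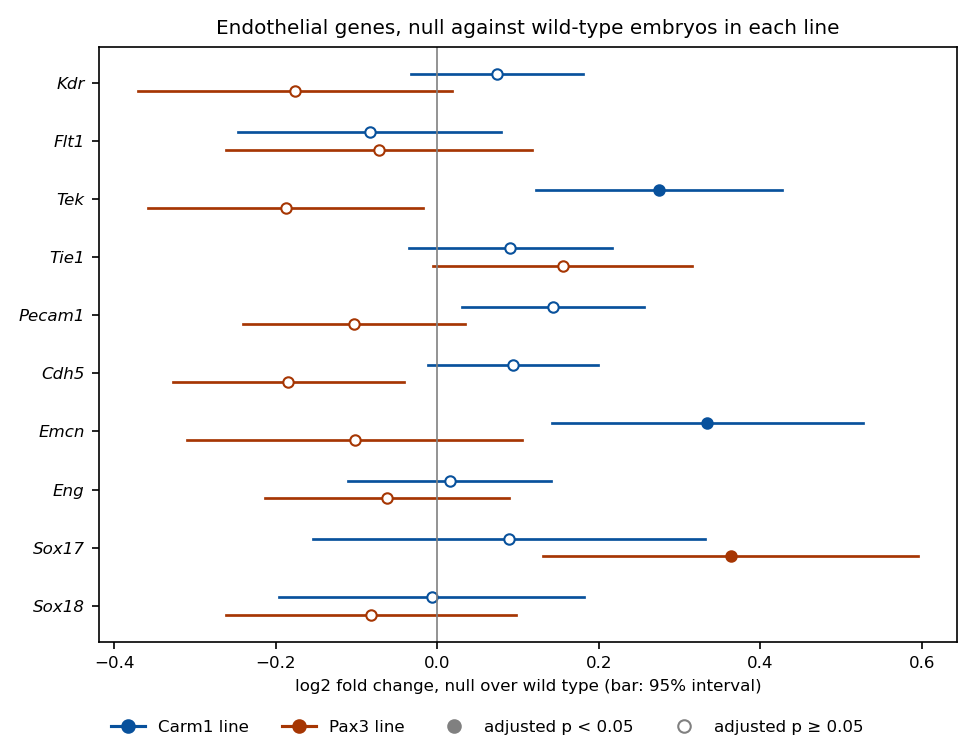
Log2 fold change of null over wild-type embryos (horizontal axis) for each endothelial gene in the Carm1 line (blue) and the Pax3 line (brown), with 95% intervals from the edgeR fit and filled points where the adjusted p is under 0.05. Filled points are *Tek* and *Emcn* in the Carm1 line and *Sox17* in the Pax3 line.

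*Kdr* and *Flt1* encode VEGF receptors, of which KDR (VEGFR2) carries most of the growth signal and FLT1 (VEGFR1) binds VEGF tightly and can act as a decoy. *Kdr* was at 78.0, 81.9 and 79.9 CPM in Carm1 null and 81.8, 73.0 and 73.4 CPM in wild-type libraries. *Flt1* was at 23.8, 21.5 and 23.9 CPM in Carm1 null and 26.5, 24.2 and 22.7 CPM in wild-type libraries. The groups overlapped for both, and the log2 fold changes were 0.074 for *Kdr* (95% interval -0.032 to 0.18) and -0.083 for *Flt1* (-0.25 to 0.080). Among Pax3 line libraries *Kdr* was at 60.5, 81.9 and 66.7 CPM in null and 82.6, 77.8 and 75.9 CPM in wild-type libraries. Null replicate 2 stood within the wild-type range and the other null libraries below it. The log2 fold change of *Kdr* was -0.18 (SE 0.090, edgeR quasi-likelihood test, adjusted p = 0.178), and without Pax3 null replicate 2 it was -0.31 (adjusted p = 0.00305). *Flt1* showed the same order of null libraries, at 18.1, 22.8 and 18.7 CPM, beside 20.7, 21.4 and 20.6 CPM in wild type, with a log2 fold change of -0.072 (-0.26 to 0.12).

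Of 8 VEGF ligands and co-receptors, none passed the test in the Carm1 line, where 13.3% of all genes tested were called. *Vegfa*, the main VEGF ligand, was higher in Pax3 null embryos and was the only one of the 8 called there. Of all genes tested in that line, 24.5% were called. *Vegfa* was at 117, 132 and 138 CPM in Pax3 null and 97.7, 95.6 and 106 CPM in wild-type libraries, and the groups did not overlap. Its log2 fold change was 0.37 (SE 0.062, edgeR quasi-likelihood test, adjusted p = 7.39e-05) and passed in all 15 alternative settings. Its value in the Carm1 line was 0.016 (95% interval -0.077 to 0.11), and the difference between the lines was -0.34 (adjusted p = 0.00192).

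*Tek* (TIE2) encodes the angiopoietin receptor and *Tie1* its partner without a firmly known ligand of its own. *Tek* lies at chr4:94739289-94874976 (GRCm38, forward strand). It was at 28.1, 29.1 and 28.2 CPM in Carm1 null and 22.9, 25.1 and 22.3 CPM in wild-type libraries. Every null library lay above every wild-type library, with means of 28.5 ± 0.528 and 23.5 ± 1.48 CPM (both SD, n = 3), which gave a log2 fold change of 0.28 (SE 0.075, edgeR quasi-likelihood test, adjusted p = 0.0113). Of 15 alternatives, only leaving out Carm1 null replicate 2 ended the call (log2 fold change 0.26, adjusted p = 0.0599).

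The order was turned in the Pax3 line, where *Tek* was at 22.3, 24.6 and 22.2 CPM in null and 27.7, 26.1 and 25.0 CPM in wild-type libraries. The groups did not overlap either, but the log2 fold change of -0.19 (SE 0.083) did not pass (edgeR quasi-likelihood test, adjusted p = 0.0998). The difference between the lines was itself tested as an interaction in one fit of the 12 libraries, where 19.1% of 16292 genes were called and 8.65% were higher and 10.5% lower in the Carm1 line. For *Tek* it was 0.47 on the log2 scale (SE 0.11, edgeR quasi-likelihood test, adjusted p = 0.00281), and it passed in all 20 alternatives.

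*Tie1* was at 45.8, 48.1 and 49.7 CPM in Carm1 null and 49.0, 42.6 and 43.5 CPM in wild-type libraries. Its level in the Pax3 line was 48.1, 52.0 and 46.5 CPM in null and 39.7, 49.3 and 42.8 CPM in wild-type libraries. The groups overlapped in both lines, through wild-type replicate 1 of the Carm1 line and wild-type replicate 2 of the Pax3 line. The log2 fold changes were 0.091 (95% interval -0.035 to 0.22) and 0.16 (-0.0059 to 0.32). Without Pax3 wild-type replicate 2 the latter was 0.25 and passed (edgeR quasi-likelihood test, adjusted p = 0.0162). Of the angiopoietins and partners of the TIE receptors, 0 of 4 tested were called in the Carm1 line, where 13.3% of all genes were. In the Pax3 line, where 24.5% were, 1 of 5 was called. That gene was *Svep1*, whose product binds TIE1, with a log2 fold change of -0.25 (adjusted p = 0.0457), and it passed in 5 of 15 alternatives (highest adjusted p = 0.295, without Pax3 wild-type replicate 1).

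*Cdh5* encodes VE-cadherin, the adhesion protein of endothelial junctions, and *Pecam1* the junction protein CD31. *Cdh5* was at 91.1, 104 and 97.0 CPM in Carm1 null and 95.4, 90.3 and 88.0 CPM in wild-type libraries, which overlapped, with a log2 fold change of 0.094 (95% interval -0.011 to 0.20). Among Pax3 line libraries *Cdh5* was at 72.2, 87.6 and 76.4 CPM in null and 97.2, 88.3 and 83.1 CPM in wild-type libraries. Null replicate 2 was again the null library within the wild-type range. The log2 fold change was -0.18 (SE 0.069) and narrowly missed the threshold (edgeR quasi-likelihood test, adjusted p = 0.0537). It passed in 7 of 15 alternatives, with adjusted p between 0.0103 (without Pax3 null replicate 2) and 0.0467 (RLE factors), and of the libraries left out only that one and Pax3 wild-type replicate 3 (0.0283) brought it past.

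*Pecam1* was at 55.7, 57.8 and 59.2 CPM in Carm1 null and 53.5, 53.4 and 49.5 CPM in wild-type libraries. The null libraries lay above the wild-type libraries, but the log2 fold change of 0.14 (SE 0.055) did not pass (edgeR quasi-likelihood test, adjusted p = 0.0855). Its level in the Pax3 line was 50.5, 52.2 and 48.4 CPM in null and 58.1, 51.5 and 52.5 CPM in wild-type libraries, which overlapped, with a log2 fold change of -0.10 (95% interval -0.24 to 0.034). The difference between the lines was 0.29 for *Cdh5* (SE 0.094, adjusted p = 0.0295) and 0.26 for *Pecam1* (SE 0.085, adjusted p = 0.0302). Neither gene was called in a line on its own. These differences passed in 13 of 20 alternatives for *Cdh5* and 14 of 20 for *Pecam1*, and every loss came from leaving out 1 library. *Cdh5* was lost without Carm1 null replicate 2 or 3, Carm1 wild-type replicate 2 or 3, Pax3 wild-type replicate 1 or Pax3 null replicate 1 or 3 (adjusted p = 0.0567 to 0.102). *Pecam1* was lost without the same libraries except Carm1 wild-type replicate 2 (adjusted p = 0.0542 to 0.0966).

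*Emcn* encodes endomucin, a surface sialoglycoprotein of veins and capillaries. It lies at chr3:137341067-137432185 (GRCm38, forward strand). It was at 16.5, 17.9 and 20.98 CPM in Carm1 null and 14.2, 14.7 and 14.97 CPM in wild-type libraries. All null libraries lay above the wild-type libraries, and null replicate 3 was the highest. The means were 18.5 ± 2.29 and 14.6 ± 0.401 CPM (both SD, n = 3), which gave a log2 fold change of 0.33 (SE 0.095, edgeR quasi-likelihood test, adjusted p = 0.0152). The call was lost with DESeq2 (adjusted p = 0.0523), without Carm1 null replicate 3 (log2 fold change 0.23, adjusted p = 0.166) and without Carm1 wild-type replicate 2 (adjusted p = 0.054).

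Pax3 line libraries held *Emcn* at 18.6, 15.4 and 15.3 CPM in null and 16.1, 16.6 and 19.98 CPM in wild-type libraries. The groups overlapped, with a log2 fold change of -0.10 (95% interval -0.31 to 0.11). The difference between the lines was 0.45 (SE 0.15, edgeR quasi-likelihood test, adjusted p = 0.0297). It passed in 13 of 20 alternatives, and with length and GC offsets it was 0.37 (adjusted p = 0.0629). The other losses came without Carm1 null replicate 3, Carm1 wild-type replicate 1 or 2, Pax3 wild-type replicate 3 or Pax3 null replicate 2 or 3 (adjusted p = 0.0526 to 0.119).

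*Eng* encodes endoglin, a co-receptor of BMP9 and BMP10 with the kinase receptor ALK1 (*Acvrl1*). *Eng* was at 46.0, 46.6 and 52.9 CPM in Carm1 null and 50.5, 46.2 and 47.4 CPM in wild-type libraries. Its level in the Pax3 line was 38.8, 43.4 and 40.8 CPM in null and 43.3, 41.8 and 43.3 CPM in wild-type libraries. The groups overlapped in both lines. The log2 fold changes were 0.015 (95% interval -0.11 to 0.14) and -0.062 (-0.21 to 0.089). The exons of *Eng* overlap those of *Fpgs* on the opposite strand, and reads of these genes cannot be told apart where counting was without strand, a setting not given in the sources used here.

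In Carm1 null embryos, where 5.49% of all genes were higher and 7.83% lower, 4 of 14 endoglin pathway genes were higher and none lower. They were *Acvrl1* (log2 fold change 0.46, edgeR quasi-likelihood test, adjusted p = 0.00036), the inhibitory SMAD gene *Smad7* (0.23, adjusted p = 0.0192) and the target genes *Id1* (0.31, adjusted p = 0.000125) and *Id3* (0.13, adjusted p = 0.0476). *Acvrl1* was at 20.3, 22.3 and 21.9 CPM in Carm1 null and 16.5, 16.1 and 14.4 CPM in wild-type libraries, without overlap. In Pax3 null embryos 3 of 14 were higher and 2 lower, beside 14.0% and 10.5% of all genes. *Id3* (0.52), *Smad7* (0.41) and *Smad6* (0.33) were higher, and the receptor gene *Bmpr2* (-0.23) and *Smad1* (-0.18), named here after its value was seen, were lower. Of these calls, *Acvrl1*, *Id1*, and *Id3* and *Smad7* in the Pax3 line, passed in all 15 alternatives, *Smad6* in 14, *Bmpr2* in 11, *Smad7* in the Carm1 line in 9 (highest adjusted p = 0.137, without Carm1 null replicate 3), and *Smad1* and *Id3* in the Carm1 line in 5. With length and GC offsets *Bmpr2* (adjusted p = 0.61) and *Smad6* (adjusted p = 0.153) did not pass. The highest adjusted p was 0.308 for *Smad1*, without Pax3 null replicate 2, and 0.252 for *Id3* in the Carm1 line, without Carm1 null replicate 1. Most of these genes act in many cell types, so their levels in a whole embryo do not belong to endothelium alone.

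*Sox17* and *Sox18* encode SOXF transcription factors, and *Sox17* is also a gene of the gut endoderm. *Sox17* lies at chr1:4490931-4497354 (GRCm38, reverse strand). It was at 11.4, 11.1 and 10.8 CPM in Pax3 null and 7.76, 8.74 and 9.36 CPM in wild-type libraries. Every null library lay above every wild-type library, with means of 11.1 ± 0.334 and 8.62 ± 0.810 CPM (both SD, n = 3), which gave a log2 fold change of 0.36 (SE 0.11, edgeR quasi-likelihood test, adjusted p = 0.0198). The call was lost without Pax3 wild-type replicate 1 (log2 fold change 0.29, adjusted p = 0.0938), without Pax3 null replicate 1 (adjusted p = 0.0795) and without Pax3 null replicate 2 (adjusted p = 0.0533). The exons of *Sox17* overlap those of *Gm37587*, a transcript on the opposite strand that the count tables do not list. Where counting was without strand, its reads could be included in the *Sox17* count, and this was not tested.

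Gut endoderm markers lay beside it: their summed level was 47.3 to 48.6 CPM in Pax3 null and 41.2 to 44.2 CPM in wild-type libraries, without overlap, although none of 4 tested was called. Their part in the *Sox17* result was not tested. Carm1 line libraries held *Sox17* at 8.72, 9.41 and 9.07 CPM in null and 8.72, 8.13 and 8.78 CPM in wild-type libraries, with a log2 fold change of 0.089 (95% interval -0.15 to 0.33). The difference between the lines was -0.26 and did not pass (edgeR quasi-likelihood test, adjusted p = 0.243).

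*Sox18* was at 15.4, 15.3 and 18.3 CPM in Carm1 null and 15.8, 17.1 and 16.3 CPM in wild-type libraries. Its level in the Pax3 line was 17.3, 18.2 and 17.8 CPM in null and 17.9, 20.2 and 18.4 CPM in wild-type libraries. The groups overlapped in both lines, with log2 fold changes of -0.0068 (95% interval -0.20 to 0.18) and -0.082 (-0.26 to 0.098). With length and GC offsets the value in the Pax3 line was -0.41 (adjusted p = 0.00084). *Sox7*, the third SOXF gene, was not called in either line, with log2 fold changes of 0.052 and -0.064.

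Beyond the 10 genes, the largest list of vessel genes was that of endothelial surface and junction genes. Of 18 tested, 9 were higher and none lower in Carm1 null embryos, beside 5.49% of all genes higher, with a median log2 fold change of 0.21. Their summed level was 667 to 680 CPM in null and 561 to 606 CPM in wild-type libraries, without overlap. The genes with the largest changes were *Icam2*, an adhesion molecule (log2 fold change 0.51, edgeR quasi-likelihood test, adjusted p = 0.00215), *Cd34* (0.40, adjusted p = 1.48e-06), *Vwf*, the von Willebrand factor of clotting (0.36, adjusted p = 0.0116), and *Plvap*, a protein of capillary fenestrae (0.34, adjusted p = 0.000224). *Cd34* was at 67.0, 65.7 and 67.2 CPM in Carm1 null and 51.7, 50.04 and 49.6 CPM in wild-type libraries. The others called, *Egfl7*, *Gpr116* (*Adgrf5*), *Cd93*, *Jam2* and *Podxl*, had log2 fold changes of 0.16 to 0.31, and apart from *Egfl7* they are named after their values were seen. Among the 9, *Vwf* passed in 13 of 15 alternatives, *Jam2* in 10 and *Podxl* in 8, and the other 6 in all 15. The highest adjusted p was 0.0741 for *Vwf* and 0.138 for *Jam2*, both without Carm1 null replicate 1, and 0.204 for *Podxl*, without Carm1 wild-type replicate 2.

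Of the same 18 in the Pax3 line, 3 were higher and none lower, beside 14.0% of all genes higher, with a median of 0.0039. They were *Cldn5*, the claudin of tight junctions (log2 fold change 0.37, adjusted p = 0.00206), *Egfl7* (0.36, adjusted p = 0.00193) and *Icam2* (0.36, adjusted p = 0.0466). *Egfl7* passed in all 15 alternatives, *Cldn5* in 14 and *Icam2* in 8. With length and GC offsets *Cldn5* had a log2 fold change of 0.022 (adjusted p = 0.889) and *Icam2* of 0.18 (adjusted p = 0.368). *Icam2* and *Egfl7* were thus called higher in both lines, while *Tek*, *Cdh5* and *Pecam1* had opposite signs in them. The difference between the lines passed for 6 of the 18 with a higher value in the Carm1 line, *Cd34*, *Podxl*, *Jam2*, *Gpr116*, *Plvap* and *Vwf*, and for *Cldn5* with a lower one. In that test 8.65% of all genes were higher and 10.5% lower.

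**Figure D3:**
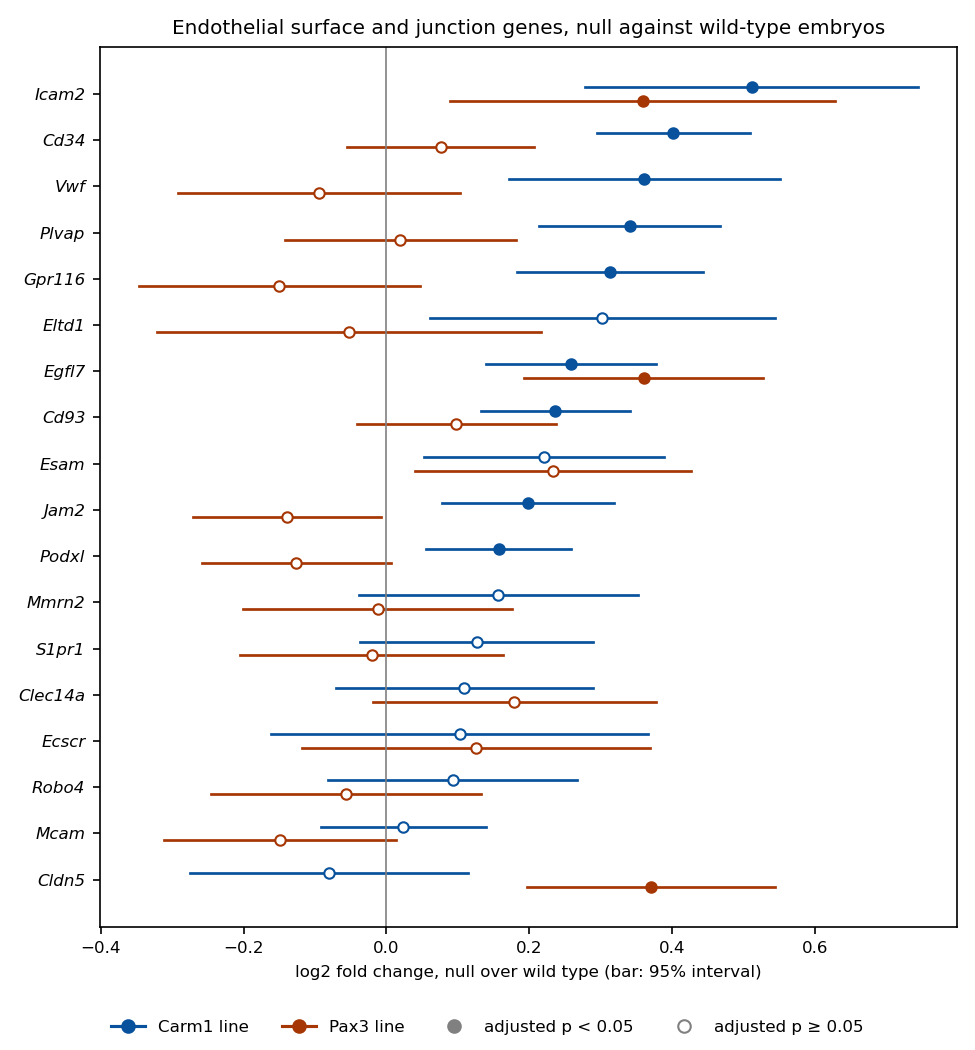
Log2 fold change of null over wild-type embryos (horizontal axis) for 18 endothelial surface and junction genes, ordered by the value in the Carm1 line (blue), beside the Pax3 line (brown), with 95% intervals and filled points where the adjusted p is under 0.05. Of the Carm1 line points 9 are filled, all to the right of 0, and in the Pax3 line *Icam2*, *Egfl7* and *Cldn5* are filled.

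Endothelial transcription factors had calls in both directions in the Carm1 line, and a difference from the surface genes was not tested. Of 14 tested, with a median of -0.014, 1 was higher and 4 lower in Carm1 null embryos, beside 5.49% and 7.83% of all genes. The lower ones were *Tal1* (log2 fold change -0.58, edgeR quasi-likelihood test, adjusted p = 9.66e-10), *Lmo2* (-0.42, adjusted p = 1.63e-05), *Lyl1* (-0.31, adjusted p = 0.0216) and *Erg* (-0.24, adjusted p = 0.0447), of which the first 3 act in blood cells as well. *Gata2*, which also serves both lineages, was higher (0.27, adjusted p = 0.0142). *Erg*, an ETS factor found in endothelium and megakaryocytes, is named after its value was seen, and it passed in 6 of 15 alternatives, *Lyl1* in 9, *Gata2* in 12 and *Tal1* and *Lmo2* in all 15. The highest adjusted p was 0.189 for *Erg* (without Carm1 wild-type replicate 3), 0.195 for *Lyl1* and 0.115 for *Gata2* (both without Carm1 null replicate 1). Pax3 null embryos had 2 of 14 higher, *Lmo2* (0.27) and *Gata2* (0.28), and none lower, beside 14.0% and 10.5% of all genes. With length and GC offsets *Lmo2* and *Gata2* had adjusted p of 0.298 and 0.151.

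Markers of other cells moved in the Carm1 line beside these results, where 5.49% of all genes tested were higher and 7.83% lower. Of the erythroid genes 8 of 11 were lower and 1 was higher, of the megakaryocyte and platelet genes 3 of 11 were lower, of the macrophage genes 2 of 12 were lower and 1 higher, and of the blood progenitor genes 2 of 7 were lower and 1 higher. All 8 hepatocyte genes were lower, with a summed level of 752 to 871 CPM in null and 1420 to 1716 CPM in wild-type libraries. Megakaryocyte and platelet genes, of cells that also express *Pecam1* and *Vwf*, summed to 88.2 to 94.3 CPM in null and 106 to 134 CPM in wild-type libraries. Mural cell genes, of the cells that wrap vessels, had 1 higher and 4 lower of 11. The part of these cells in the endothelial results was not tested.

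Fewer of these markers were called in the Pax3 line, where 14.0% of all genes tested were higher and 10.5% lower. There 1 of 11 erythroid genes was higher, 2 of 11 megakaryocyte and platelet genes were higher, 1 macrophage gene was higher and 1 lower of 12, 1 of 6 blood progenitor genes was lower, 3 of 11 mural cell genes were lower and 2 of 8 hepatocyte genes were lower. Gut endoderm genes had no call in the Carm1 line (0 of 5).

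**Figure D4:**
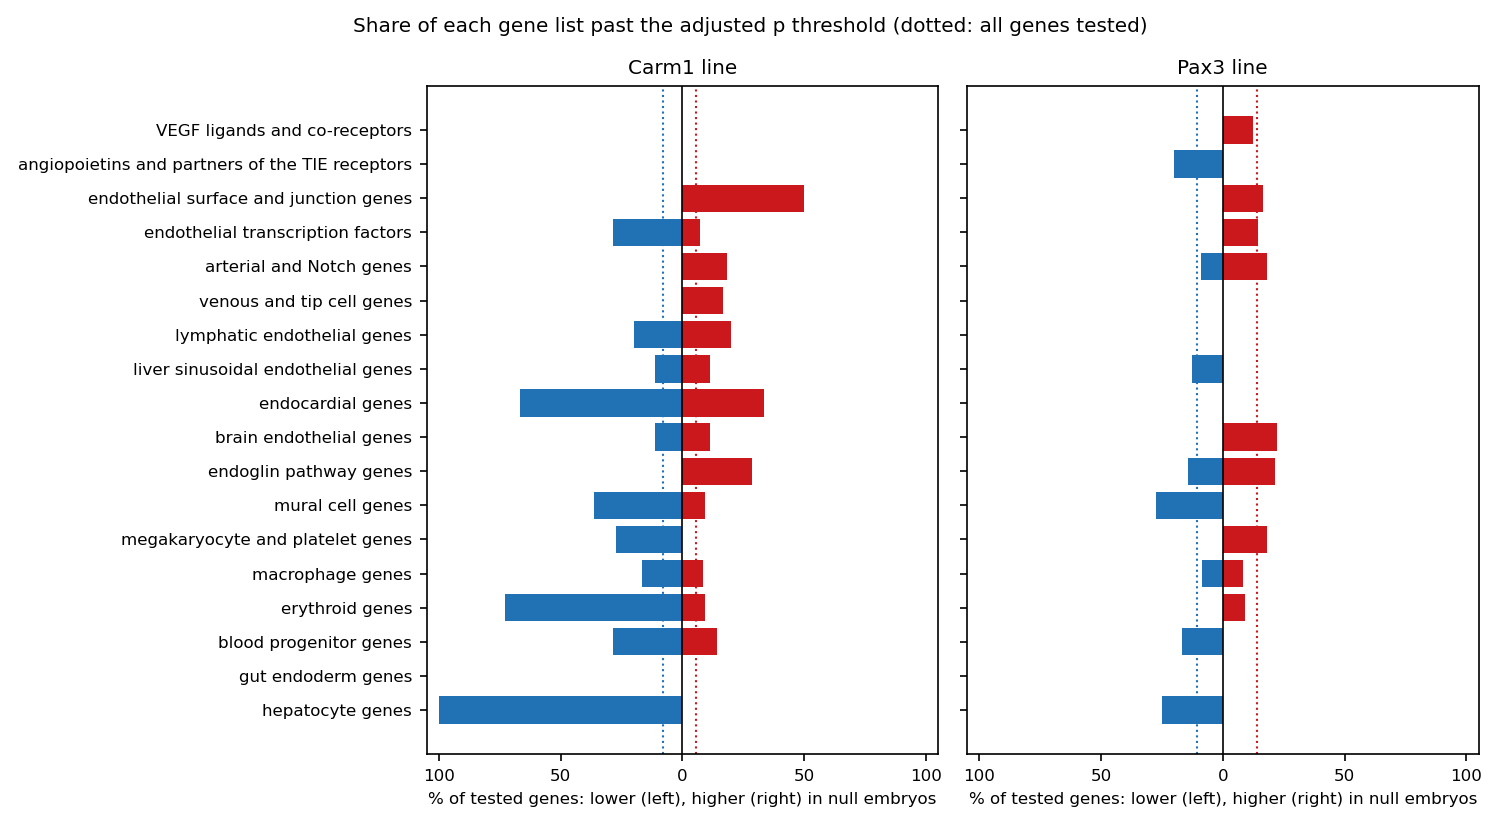
Percentage of the tested genes of each list that passed the adjusted p threshold, lower in null embryos to the left and higher to the right of 0, in the Carm1 line (left panel) and the Pax3 line (right panel), with dotted lines at the shares over all genes tested. In the Carm1 line the longest bars are those of hepatocyte (8 of 8), erythroid (8 of 11) and endocardial genes (2 of 3) to the left, and of surface and junction genes (9 of 18) to the right.

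Of the arterial and Notch genes 2 of 11 were higher in Carm1 null embryos, *Cxcr4* (log2 fold change 0.30, edgeR quasi-likelihood test, adjusted p = 0.00489) and *Notch1* (0.18, adjusted p = 0.0427). In Pax3 null embryos *Gja4*, a connexin of arteries (0.37, adjusted p = 0.0295), and *Unc5b* (0.19, adjusted p = 0.0455) were higher and *Hey2*, a Notch target (-0.33, adjusted p = 0.0229), was lower. Of the venous and tip cell genes 1 of 6 was higher in the Carm1 line, the venous factor gene *Nr2f2* (0.18, adjusted p = 0.00454), and 0 of 6 were called in the Pax3 line. Of these calls *Cxcr4* passed in all 15 alternatives, *Nr2f2* in 14, *Notch1*, *Hey2* and *Gja4* in 9 and *Unc5b* in 8. *Gja4* had a log2 fold change of 0.082 (adjusted p = 0.705) with length and GC offsets, and the highest adjusted p was 0.163 for *Notch1* (without Carm1 null replicate 3), 0.0626 for *Nr2f2* (without Carm1 null replicate 1), and 0.114 for *Hey2* and 0.343 for *Unc5b* (both without Pax3 null replicate 2). Over 11 lists of vessel genes, in which some genes recur, 98 of 101 different genes were tested. Of these 21 were higher and 8 lower in the Carm1 line, beside 5.49% and 7.83% of all genes tested. In the Pax3 line 12 were higher and 5 lower, beside 14.0% and 10.5% of all genes tested.

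The 10 genes did not all vary together among replicates. Over 12 libraries, with log2 CPM centred on each group's mean, the correlation of a gene with the mean of the other 9 was 0.75 for *Eng*, 0.66 for *Flt1* and 0.61 for *Kdr*. It was -0.0039 for *Sox17* and -0.16 for *Emcn*. The genes whose pattern was most like the mean of the 10 were *Mll1* (0.96), *Dstyk* (0.95), *Pear1* (0.93), *Atn1* (0.93) and *Fmn1* (0.92), out of 14842 genes whose 95th percentile was 0.64. These values describe libraries that share a line and a sequencing provider, and carry no test.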

How the data were processed

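RNA was measured in 12 libraries of whole E12.5 embryos, 3 in each of 4 groups, grouped by the genotype in the labels. Per the labels and the study's methods, the authors enriched polyadenylated RNA, sequenced paired ends, aligned to mm10 with STAR and counted reads per gene with featureCounts. What they deposited are counts as whole numbers, neither normalized nor pooled over replicates. Versions and the strand setting are not given in the sources used here. Nothing says that libraries of a group came from separate litters, so p-values measure the spread between these libraries.

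From the counts, edgeR 4.0.16 (R 4.3.3, limma 3.58.1) was run on all genes of each line: TMM factors, filterByExpr, robust quasi-likelihood test, and an adjusted p (Benjamini-Hochberg) under 0.05 as the call. The standard error is the absolute log2 fold change over the square root of F. The difference between the lines (Carm1 minus Pax3) was an interaction in one fit of 12 libraries. The edgeR fits of a line and of the interaction were tried on simulated data with 200 changed genes. The other steps were not tested in this way. Gene positions and lengths come from GENCODE (GRCm38, equal to mm10), where 10 of 10 genes matched. Older symbols of the tables were matched through RefSeq synonyms. Correlations used a pseudocount of 0.5 CPM and genes of at least 1 CPM on average.

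Named genes were the 10 endothelial genes, *Carm1* and *Pax3*, up to 4 genes per list with the largest change among those called (or among the rest where none was), and the 5 genes most like the mean of the 10. The members, the gene lists, the tests and the alternatives were chosen with earlier results of these data known. Alternatives were DESeq2 1.42.0, RLE factors, upper-quartile factors, no filter on low counts, at least 10 counts in every library, one fit of 12 libraries, the replicate number as a block, a term for libraries with at least 100 Y-linked counts, offsets for length and GC content (splines with 5 degrees of freedom), and leaving out each library.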

Additional observations from a re-analysis of the deposited data

Results flagged for a closer look

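The null against wild-type effect differed between the lines, by the test of the difference itself (edgeR quasi-likelihood test of the interaction, Benjamini-Hochberg adjusted p under 0.05, 12 libraries), for 4 of the 10 endothelial genes, where 19.1% of 16292 genes tested were called. Of 99 different genes tested on the 11 lists of vessel genes, 26 were called, 17 higher and 9 lower. Values are given for the 18 called among the 33 that the naming rule took from these lists because they were called in a line, so their number is no count over the lists. Differences are log2 values, Carm1 line minus Pax3 line.

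Among the 10, *Tek* differed by 0.47, *Emcn* by 0.45, *Cdh5* by 0.29 and *Pecam1* by 0.26, and each had a positive value in the Carm1 line and a negative one in the Pax3 line. Among surface genes *Vwf* differed by 0.46, *Cd34* by 0.34 and *Plvap* by 0.33, and *Cldn5* by -0.44. Among factors shared with blood *Tal1* differed by -0.65 and *Lmo2* by -0.69. Of the arterial and Notch genes *Hey2* differed by 0.45, *Cxcr4* by 0.37 and *Notch1* by 0.28. *Acvrl1*, the receptor partner of endoglin, differed by 0.43, its target gene *Id3* by -0.37 and the ligand gene *Vegfa* by -0.34. Of the lymphatic genes *Pdpn* differed by 0.50 and *Lyve1* by -0.60. Of the endocardial genes *Npr3* differed by 0.26 and *Cytl1* by -2.48, the latter at no more than 3.62 CPM in any library. Of the brain endothelial genes *Mfsd2a* differed by 0.62 and *Slc2a1* by -0.48. Over 20 alternatives *Vwf* passed in 11, *Notch1* in 13, *Lyve1*, *Acvrl1* and *Hey2* in 14, *Npr3* in 15, *Cldn5* in 16 and *Id3* and *Plvap* in 19. With length and GC offsets the adjusted p was 0.661 for *Cldn5*, 0.151 for *Npr3* and 0.0926 for *Id3*, and the highest for the others was 0.121 (*Vwf*), 0.0934 (*Notch1*) and 0.137 (*Acvrl1*), each without Pax3 wild-type replicate 1, 0.145 (*Lyve1*), without Pax3 null replicate 3, 0.154 (*Hey2*), without Carm1 null replicate 3, and 0.0516 (*Plvap*), without Pax3 null replicate 1.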

How the results depend on the processing

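Depth and 3 libraries a group limit single genes: most differences here are under 0.4 on the log2 scale, and leaving out 1 library changed several calls. In the Carm1 line 2 of the 10 endothelial genes were called, 1 with DESeq2, 3 with length and GC offsets, and 1 to 2 when 1 library was left out. For the Pax3 line 1 was called, 2 with RLE factors, no filter on low counts, one fit of 12 libraries, the term for Y-linked counts or length and GC offsets, and 0 to 2 when 1 library was left out. Between the lines 4 were called, and 1 to 4 when 1 library was left out. Over all genes 2106 were called in the Carm1 line (1224 to 2290 with 1 library left out) and 3851 in the Pax3 line (2454 to 4103). The scalings moved the median of all genes by at most 0.0159. Length and GC offsets gave 1615 higher and 1376 lower genes in the Carm1 line, against 868 and 1238. The count of 9 surface and junction genes higher in the Carm1 line lay between 6 and 11 over the same settings, a check chosen after the data had been seen. The causes of these changes were not tested.

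Values near 0 changed sign. Carm1 line *Eng* went to -0.050 without null replicate 3 and -0.011 without wild-type replicate 2, and *Sox18* to 0.035, 0.037 and 0.029 without null replicates 1 and 2 and wild-type replicate 2. Pax3 line *Flt1* went to 0.013 with length and GC offsets and *Emcn* to 0.0084 without wild-type replicate 3. Over all libraries left out in turn, the Carm1 line value ranged from -0.050 to 0.052 for *Eng* and from -0.094 to 0.037 for *Sox18*, and that of *Emcn* in the Pax3 line from -0.20 to 0.0084. The difference between the lines for *Flt1* went to 0.0024 with DESeq2, 0.0016 with RLE factors, 0.0044 with the replicate block and 0.00088 with the Y-linked term. Without 1 library it went to 0.047 (Carm1 null 2), 0.056 (Carm1 wild type 1), 0.0034 (Pax3 wild type 1), 0.0093 (Pax3 wild type 3) and 0.11 (Pax3 null 2), with a lowest value of -0.063. For *Tie1* it went to 0.045 with length and GC offsets, 0.0061 without Carm1 wild type 1 and 0.0090 without Pax3 wild type 1, with a lowest value of -0.14 when 1 library was left out. With offsets *Pecam1* passed in the Carm1 line (adjusted p = 0.0181) and *Sox18* between the lines (0.40, adjusted p = 0.0222). *Kdr* passed between the lines without Pax3 null replicate 2 (0.39, adjusted p = 0.00175).

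The replicate numbers are shared by the groups. Same-numbered libraries correlated in their deviations by -0.053, -0.0016 and -0.048 in the Carm1 line and 0.17, -0.079 and 0.25 in the Pax3 line. Whether they share more than a number, such as a litter, is not given in the sources used here and was not tested. With the replicate number as a block, 2 of the 10 genes were called in the Carm1 line, 2 in the Pax3 line (*Cdh5* added, adjusted p = 0.0385) and 4 between the lines.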

Other observations

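Genes listed for single vessel beds were called in both directions in the Carm1 line, where 13.3% of all genes were called. In the Pax3 line 3 were called, where 24.5% of all genes were (edgeR quasi-likelihood test, Benjamini-Hochberg adjusted p under 0.05). RNA of whole embryos does not assign these genes to a vessel bed. Of 5 lymphatic genes, *Pdpn* was higher (log2 fold change 0.49, adjusted p = 1.72e-07) and *Lyve1*, a receptor of lymphatic and sinusoidal endothelium and of macrophages, was lower (-0.93, adjusted p = 1.28e-06) in Carm1 null embryos. *Lyve1* was at 7.08, 7.62 and 6.01 CPM in null and 13.7, 11.9 and 13.9 CPM in wild-type libraries, and the groups did not overlap. None of the 5 was called in the Pax3 line. Of 9 liver sinusoidal genes tested in the Carm1 line, *Lyve1* was lower and *Fcgr2b* higher (1.39, adjusted p = 0.0158), the latter at 0.244 to 1.40 CPM. Of 8 tested in the Pax3 line, *Mrc1*, also a macrophage gene, was lower (-0.41, adjusted p = 0.00281).

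All 3 genes of the endocardial list were called in Carm1 null embryos, in RNA that is not of endocardium alone. *Npr3* was higher (0.18, adjusted p = 0.0313), and *Nfatc1*, a factor of valve endocardium (-0.24, adjusted p = 0.0304), and *Cytl1* (-1.71, adjusted p = 4.6e-05) were lower. None was called in the Pax3 line. Of 9 brain endothelial genes, *Mfsd2a*, a lipid transporter of the blood-brain barrier, was higher (0.51, adjusted p = 0.00259) and *Slc2a1*, the glucose transporter that red cells also carry, was lower (-0.27, adjusted p = 0.000108) in Carm1 null embryos. Pax3 null embryos had *Slc2a1* (0.22, adjusted p = 0.0179) and *Cldn5* (0.37, adjusted p = 0.00206) higher. Over 15 alternatives *Pdpn*, *Lyve1*, *Mrc1*, *Cytl1* and *Mfsd2a*, and *Slc2a1* in the Carm1 line, passed in all, *Slc2a1* in the Pax3 line in 10, *Fcgr2b* and *Npr3* in 9 and *Nfatc1* in 8. The highest adjusted p was 0.112 for *Slc2a1* in the Pax3 line (without Pax3 wild-type replicate 3), 0.089 for *Fcgr2b* (without Carm1 wild-type replicate 3), 0.123 for *Npr3* (without Carm1 null replicate 2) and 0.175 for *Nfatc1* (without Carm1 wild-type replicate 2). *Cldn5* did not pass with length and GC offsets.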
